A study of Mus musculus with 21 samples.

Results

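The Hox genes lie in 4 tight clusters of the mouse genome, and the data on them are peaks of Foxa and Hnf4a binding mapped by chromatin immunoprecipitation followed by sequencing (ChIP-seq). All peaks of 12 deposited lists that overlap a cluster by at least 1 bp on the mouse genome build mm9 were taken as members: 108 peaks of 53536. The clusters are HoxA on chromosome 6 at 52090000 to 52230000, HoxB on chromosome 11 at 96040000 to 96240000, HoxC on chromosome 15 at 102740000 to 102880000 and HoxD on chromosome 2 at 74480000 to 74615000. The clusters were chosen by how many peaks of these same lists they hold, so the counts below are a description and carry no test. Of the 108 peaks, 89 (82.4%) come from the 2 lists of one line, iHep cells made with Foxa3, and 79 (73.1%) lie in HoxA.

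The starting cells were fibroblasts of C57BL/6 mouse embryos taken 13.5 days post coitum. All were infected with retroviruses for Hnf4a and 1 Foxa protein, Foxa1, Foxa2 or Foxa3, and each such pair is called a line here. ChIP was done 48 hours after infection or in established hepatocyte-like cells (iHep), with an antibody to the line's own Foxa protein or to Hnf4a. That gives 6 Foxa and 6 Hnf4a lists, with 1 library in each group and nothing to measure the spread between replicates. Every group therefore carries Hnf4a, and no group without a Foxa protein has a list. A further list, for a Ty1-tagged del2 mutant of Foxa3 with Hnf4a at 48 hours, held 1 peak and 0 in the clusters. Neither the promoters of the vectors nor the number of clones behind an iHep line is stated in the labels. The files hold positions only, so the cells could not be checked against marker genes.

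Foxa proteins are forkhead transcription factors that can bind their sites in closed chromatin, and Hnf4a is a nuclear receptor. Together they direct liver development. Hox genes encode homeodomain transcription factors that set the identity of body segments along the head-to-tail axis. Their order along a cluster follows the order of the body regions where they act, and fibroblasts are known to keep the Hox pattern of the place they came from.

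The 38 Hox genes considered are Hoxa2 to Hoxa13 (10 genes), Hoxb1 to Hoxb13 (10), Hoxc4 to Hoxc13 (9) and Hoxd1 to Hoxd13 (9). The lowest numbers act towards the head, as Hoxa2 and Hoxb1 do in the hindbrain, and the highest towards the tail and the ends of the limbs, as Hoxa13 and Hoxd13 do. All 38 were found in the RefSeq gene table of GRCm38.p6. There Hoxa2 to Hoxa13 follow each other with rising coordinates, while HoxB, HoxC and HoxD begin with Hoxb13, Hoxc13 and Hoxd13. Gene positions on mm9 were not used here, so no peak was assigned to a gene, and distances are given from the lower bound of each cluster.

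Promoter sequences show what letters the 2 families of factors could meet at these genes. The RefSeq promoter table of GRCm38.p6 held 22 of the 38 genes in 24 entries, and the 250 bases before each gene start were searched on both strands. The forkhead string TGTTTAC was held by 0 of the 24, beside 3.17% of all 32851 promoters. The form TATTTAC was held by 1 of the 24, beside 2.73% of all. The form TGTTTGC was held by 1 of the 24, beside 4.30% of all. The only Hox promoter with any of the 3 was that of Hoxa2, which held a pair (1 of 24 entries, 4.17%, beside 9.73% of all promoters). The Hnf4a string CAAAGTCC was held by the promoter of Hoxd8 alone (1 of 24, beside 1.2% of all). The matches do not overlap. These promoters are printed because they are the only ones with a match, with the matched letters in capitals. Both Hoxa2 matches and the Hoxd8 match lie on the opposite strand, so the capitals are reverse complements. The Hoxa2 stretch is chr6:52164832-52165081 on the minus strand and the Hoxd8 stretch is chr2:74704365-74704614 on the plus strand, both on GRCm38.p6.
Hoxa2: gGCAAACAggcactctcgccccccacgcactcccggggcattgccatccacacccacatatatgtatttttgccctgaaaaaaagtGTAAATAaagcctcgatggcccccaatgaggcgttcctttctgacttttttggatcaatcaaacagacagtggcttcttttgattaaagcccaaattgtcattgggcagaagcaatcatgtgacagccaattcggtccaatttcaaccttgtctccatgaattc
Hoxd8: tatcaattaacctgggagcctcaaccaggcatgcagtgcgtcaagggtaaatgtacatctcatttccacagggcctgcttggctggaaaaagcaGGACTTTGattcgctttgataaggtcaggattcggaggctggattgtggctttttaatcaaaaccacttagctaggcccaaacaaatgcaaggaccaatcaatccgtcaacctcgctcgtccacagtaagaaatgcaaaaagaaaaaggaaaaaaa
In Hoxa2 the matches begin 249 and 164 bases before the gene start, and in Hoxd8 the match begins 156 bases before it. A match is a run of letters and not a bound site, and its absence says only that these letters are not in this window. The Hox promoters were rich in G and C, with a median of 58.6% against 52.4% for all promoters. They held a median of 12.5 CpG pairs in 250 bases against 6. Among the HoxA entries Hoxa13 had 80.0% G and C with 35 CpG pairs and Hoxa2 46.4% with 6.

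HoxA held most of the peaks, and nearly all of these in iHep cells of the Foxa3 line. At 48 hours HoxA had 2 Foxa1 peaks, 1 Foxa2 peak and 5 Foxa3 peaks. In iHep cells it had 1 Foxa1 peak, 1 Foxa2 peak and 40 Foxa3 peaks. The Foxa3 line thus had the most Foxa peaks at both stages, and more in iHep cells than at 48 hours. With peaks within 500 bp merged the 5 Foxa3 peaks of 48 hours stayed 5 and the 40 of iHep cells became 14, and with peaks up to 2 kb apart joined they were 5 and 6. Hnf4a had 0 peaks in HoxA in all 3 lines at 48 hours and in the iHep Foxa1 and Foxa2 lines, and 29 in the iHep Foxa3 line. In the flanks of the same length on either side of HoxA, the iHep Foxa3 line had 0 Foxa3 and 0 Hnf4a peaks. The other 10 lists together had 3 peaks there, from Foxa1 and Foxa2 at 48 hours.

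**Figure D1:**
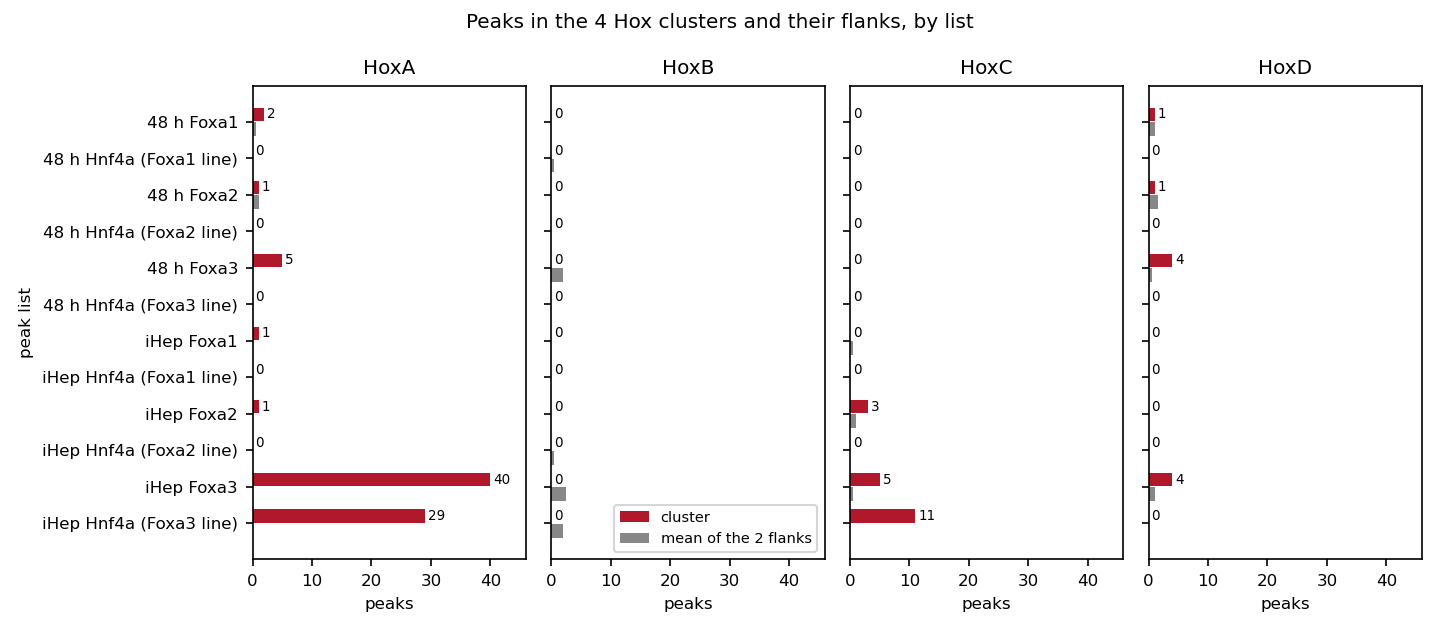
Number of peaks (x axis) in each of the 12 lists (y axis) in the 4 Hox clusters (red, with the count) and the mean of the flanks of equal length on both sides (grey). The bars of the iHep Foxa3 line in HoxA, 40 for Foxa3 and 29 for Hnf4a, exceed all others, and HoxB holds 0 peaks in every list.

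As the counts of peaks depend on how long a list is, they were also set against the whole list. The 4 clusters held 49 of 12661 iHep Foxa3 peaks (0.387%, Wilson 95% interval 0.293% to 0.511%) and 40 of 2506 Hnf4a peaks of the same cells (1.60%, 1.17% to 2.17%). For Foxa3 at 48 hours it was 9 of 5690 (0.158%, 0.0832% to 0.30%). The other Foxa lists had 3 of 6781 (Foxa1) and 2 of 6827 (Foxa2) at 48 hours, and 1 of 3435 (Foxa1) and 4 of 10330 (Foxa2) in iHep cells. The remaining Hnf4a lists held 0 of 418, 453 and 370 at 48 hours and 0 of 1580 and 2485 in iHep cells. These intervals cover counting error only, treat neighbouring peaks as separate events and are therefore too narrow. The depth of the libraries is unknown. The 48-hour Hnf4a lists are short, and 110, 106 and 106 of their peaks lay in 1 stretch of chromosome 9, at 2940022 to 3080022. Their median widths were 87, 89 and 93.5 bp, against 205 bp for Hnf4a in the iHep Foxa3 line. Their counts of 0 thus do not show that Hnf4a was absent from the clusters at 48 hours.

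The Foxa3 counts of both stages and the Hnf4a count of the iHep Foxa3 line depended on low-scoring peaks. The Foxa3 and Hnf4a counts of iHep cells also depended on how peaks are split. In the upper 50% of the list by score 14 iHep Foxa3 peaks remained in the clusters (0.221%). With that list reduced to its best 3435 peaks, the length of the iHep Foxa1 list, 4 remained (0.116%). The Hnf4a count fell from 40 to 15 in the upper 50% (15 of 1253, 1.2%). At the length of the shortest iHep Hnf4a list it was 18 (1.14%). In the upper 50% by score the Hnf4a share of its list thus changed less than that of Foxa3, from 1.60% against 0.387% in the full lists. The cuts to the shortest list are unlike, as they kept 1580 of 2506 Hnf4a peaks and 3435 of 12661 Foxa3 peaks. The 48-hour Foxa3 count was 2 in the upper 50% by score (0.0703%). With peaks up to 2 kb apart joined, the clusters held 12 Foxa3 regions of iHep cells (0.163% of the joined list), 8 Foxa3 regions of 48 hours (0.159%) and 8 Hnf4a regions of the iHep Foxa3 line (0.422%). The Foxa3 shares of the stages were then nearly equal. Under this joining the Hnf4a share fell by a larger factor than the iHep Foxa3 share. What the score measures is not given in the sources, so it is used only to rank peaks within a list.

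Against windows of the same length laid back to back along all chromosomes, 2 of 18841 held at least 40 iHep Foxa3 peaks (0.0106%) and 1 held at least 29 Hnf4a peaks of that line (0.00531%). The window on HoxA is counted in both. Of the 18839 windows that do not touch HoxA, 1 and 0 reached these counts. At least 5 Foxa3 peaks at 48 hours, as in HoxA, were held by 0.642% of windows. The HoxA counts of Foxa1 were reached by 7.19% of windows at 48 hours and 14.5% in iHep cells, and those of Foxa2 by 24.6% and 31.2%. The cluster was chosen with these counts known, so the percentages only give their place. Of the windows that do not touch HoxA, the highest Foxa3 count was 49, on chromosome 19 at 5740042 to 5880042, and the highest Hnf4a count was 16, on chromosome 6 at 47600341 to 47740341.

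**Figure D2:**
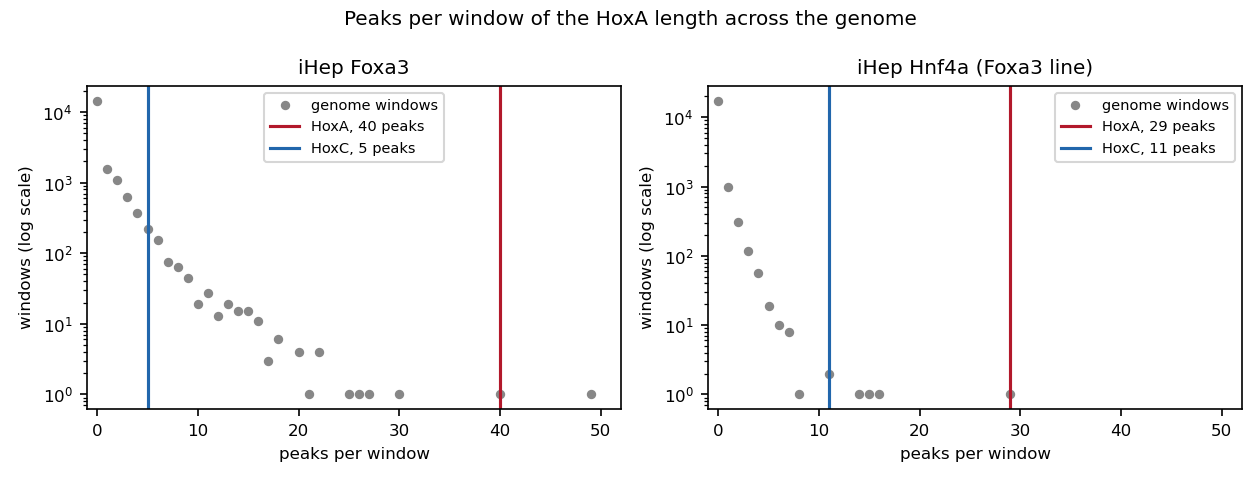
Number of genome windows of the HoxA length (y axis, log scale) that hold a given number of peaks (x axis) in the 2 lists of the iHep Foxa3 line, with lines at the counts of HoxA and HoxC. For Foxa3 1 window beyond HoxA lies above its 40 peaks, and for Hnf4a none lies above its 29.

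Within HoxA the peaks of the iHep Foxa3 line were packed into the upper middle of the cluster. Of the 40 Foxa3 peaks, 3 lay 10 to 20 kb from the lower bound, 1 at 50 to 60 kb and 3 at 70 to 80 kb. The 4 bins of 10 kb from 80 to 120 kb held 6, 9, 8 and 9, and the bin from 120 to 130 kb held 1. Hnf4a followed the same stretch, with 7, 10, 8 and 3 peaks in the bins from 80 to 120 kb and 1 peak elsewhere, at 43.3 kb. The densest bin, 90 to 100 kb, had 69.3% of its bases in Foxa3 peaks and 33.6% in Hnf4a peaks.

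With gaps of up to 2 kb closed, 33 of the 40 Foxa3 peaks formed a pair of runs. The lower run, at 52172259 to 52190469, was 18.2 kb long and held 15 peaks, and the upper run, at 52193492 to 52210124, was 16.6 kb long and held 18. From the first to the last base of the pair, 37.9 kb, Foxa3 peaks covered 60.0% of the sequence and Hnf4a peaks 26.1%. The 48-hour Foxa3 peaks covered 5.36% of it, and those of Foxa1 and Foxa2 at 48 hours and of Foxa2 in iHep cells 1.07%, 0.901% and 1.0%. The longest Hnf4a run lay inside the lower one, at 52173617 to 52190454, and its 18 peaks were the most in any run of that list. The next longest Hnf4a run of the genome held 13. Among Foxa3 runs the longest, on chromosome 19 at 5812430 to 5850576, held 42 peaks.

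**Figure D3:**
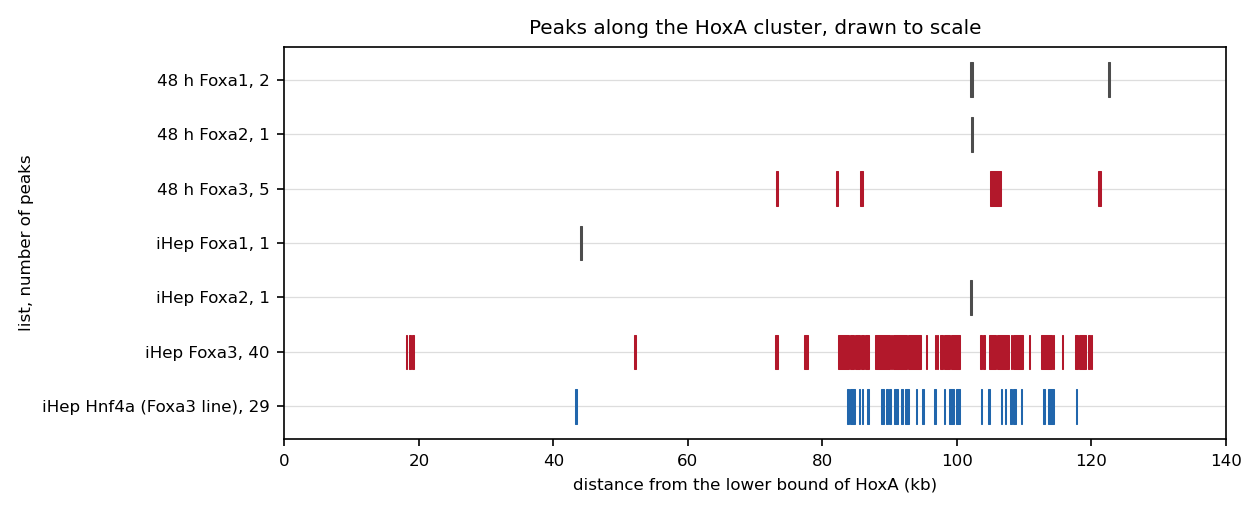
Peaks along HoxA, drawn to scale as bars, with distance from the lower bound in kb (x axis) and 1 row per list that has a peak in any cluster, with its count. Foxa3 (red) and Hnf4a (blue) of the iHep Foxa3 line fill 80 to 120 kb, while Foxa1 and Foxa2 (grey) have 1 or 2 peaks each.

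The single HoxA site that Foxa1 and Foxa2 had in common lay in the gap between the Foxa3 runs. It spans 52191923 to 52192407 and holds a 48-hour Foxa1, a 48-hour Foxa2 and an iHep Foxa2 peak. The gap is 3022 bp long, with 1453 bp from the lower run to this site and 1084 bp from the site to the upper run. The scores of the 3 peaks lay at the 35.1, 25.0 and 34.4 percentile of their lists. The other 48-hour Foxa1 peak, at 52212480 to 52212805, lay 2355 bp past the last iHep Foxa3 peak. The iHep Foxa1 peak at 52133884 to 52134203 lay 433 bp from an Hnf4a peak of the iHep Foxa3 line and overlapped no peak of another list. Of its whole list 85.3% overlapped an iHep Foxa2 peak and 60.8% a 48-hour Foxa1 peak. In turn 0 of 4 iHep Foxa2 peaks in the clusters lay at an iHep Foxa1 peak, beside 28.3% of that list. None of the 49 iHep Foxa3 peaks in the clusters overlapped a Foxa1 or Foxa2 peak of either stage (0%, upper bound of the Wilson interval 7.27%, beside 2.63% of the whole list), nor did any of the 9 at 48 hours (beside 3.92%) or of the 40 Hnf4a peaks (beside 12%). The 3 Foxa proteins were each pulled down by another antibody from another line, so protein, antibody and line cannot be told apart. The titles of the iHep Foxa3 line also carry the replicate number 3 and the code R170, against 1 and other codes in the other lines. The 48-hour titles of the Foxa3 line also carry 1 and another code. Stage, replicate number and code thus cannot be told apart in the Foxa3 line. In the Foxa1 and Foxa2 lines the codes also differ between the stages, so stage and code cannot be told apart there.

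At 48 hours the 5 Foxa3 peaks of HoxA were spread over 48.4 kb. They began at 52163017, 52171950, 52175598, 52194977 and 52210993. The fourth was the strongest, at 52194977 to 52196531 with a score of 29.0, which is the 87.4 percentile of its list, and at 1555 bp also the widest. The others scored between 8.55 and 12.8. Of these 5 peaks, 4 overlapped an iHep Foxa3 peak and the last lay 868 bp beyond the end of the upper iHep run.

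Across the 4 clusters, 4 of 9 Foxa3 peaks of 48 hours were present in iHep cells (44.4%, Wilson interval 18.9% to 73.3%), beside 74.2% of the whole list. This was 4 of 5 in HoxA and 0 of 4 in HoxD. In the other direction 5 of 49 iHep Foxa3 peaks lay at a 48-hour peak (10.2%, 4.44% to 21.8%), beside 43.8% of the whole list. Most Foxa3 peaks of the clusters in iHep cells were thus not in the 48-hour list. With both lists at 5690 peaks the latter share was 4 of 12 (33.3%), beside 62.4% of the reduced list. The share of 48-hour Foxa3 peaks then stayed at 4 of 9, beside 54.4% of the list, a value inside its interval. The 48-hour Hnf4a list of the line has 370 peaks, 106 of them in 1 stretch of chromosome 9. None of the 40 Hnf4a peaks of the iHep Foxa3 line was in it, beside 1.48% of their whole list. None lay at an iHep Hnf4a peak of the Foxa1 or Foxa2 line either, beside 21.2% and 26.3% of the whole list. Of the others, 1 of 2 Foxa2 peaks of 48 hours and 0 of 3 Foxa1 peaks were present in iHep cells, beside 31.5% and 30.8% of those lists. In the other direction 1 of 4 iHep Foxa2 peaks and 0 of 1 iHep Foxa1 peaks were in the 48-hour lists, beside 20.8% and 60.8%.

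Foxa3 and Hnf4a were found together in HoxA. Of its 29 Hnf4a peaks, 27 overlapped a Foxa3 peak (93.1%, Wilson interval 78.0% to 98.1%), beside 37.7% of all Hnf4a peaks of the line. Of its 40 Foxa3 peaks, 23 overlapped an Hnf4a peak (57.5%, 42.2% to 71.5%), beside 6.93% of all Foxa3 peaks. Foxa3 peaks fill much of this stretch, so some overlap follows from their cover alone. In the 37.9 kb of the pair of runs, where Foxa3 peaks cover 60.0%, 85.8% of the bases in Hnf4a peaks lay inside Foxa3 peaks. The centre of an Hnf4a peak was a median of 241 bp from the nearest Foxa3 centre.

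Over all 4 clusters 29 of 40 Hnf4a peaks lay at Foxa3 peaks (72.5%, 57.2% to 83.9%) and 25 of 49 Foxa3 peaks at Hnf4a peaks (51.0%, 37.5% to 64.4%). When centres had to be within 200 bp of each other these shares were 32.5% and 28.6%, beside 25.5% and 5.03% of the whole lists. With both lists at 2506 peaks, 4 of 40 Hnf4a peaks overlapped a Foxa3 peak (10%), of which 3 were then left in the clusters, and this is below the 15.5% over the whole list. At 48 hours 0 of 9 Foxa3 peaks of the clusters lay at an Hnf4a peak, beside 0.58% of that list. The Foxa3 peaks at Hnf4a peaks were wider than the rest, with a median of 637 bp for 25 against 251 bp for 24, while their median score percentiles were 33.1 in both. A wider peak has more bases at which to meet another, so a split by overlap favours width by itself. Over the whole list the Foxa3 peaks at Hnf4a peaks scored higher than those without, with median percentiles of 67.3 and 48.9, and had a median width of 435 bp.

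**Figure D4:**
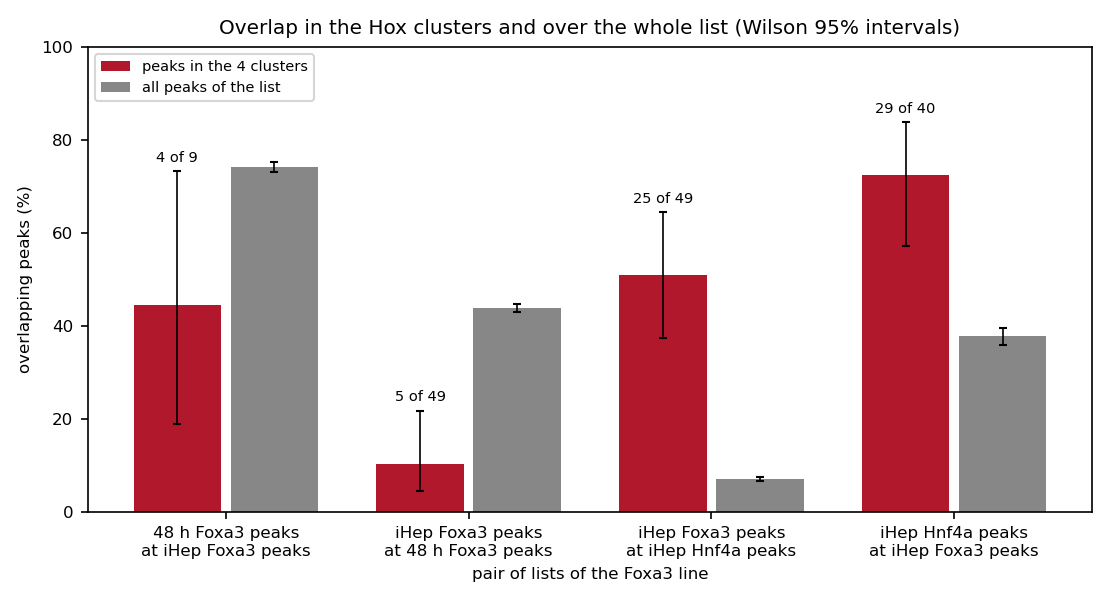
Share of peaks that meet a peak of the second list (y axis, percent) for 4 pairs of lists of the Foxa3 line, in the Hox clusters (red, with counts) and over the whole list (grey). Lines are Wilson 95% intervals for counting error. For iHep Foxa3 peaks, sharing with 48 hours is lower in the clusters (10.2% against 43.8%) and sharing with Hnf4a is higher (51.0% against 6.93%). For 48-hour Foxa3 peaks the share in iHep cells is 44.4% against 74.2%, or 44.4% against 54.4% with lists of equal length.

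Dense stretches of iHep Foxa3 peaks elsewhere were the closest comparison. There were 142 other windows of the HoxA length with at least 10 such peaks. In them the share of Foxa3 peaks at an Hnf4a peak had a median of 6.46% and ranged from 0% to 76.9%, and 2 of the 142 reached the 57.5% of HoxA. In the window on chromosome 19 with 49 Foxa3 peaks it was 4.08%, with 3 Hnf4a peaks. These windows held a median of 30.8 Foxa3 peaks of 48 hours for each 100 of iHep cells, against 12.5 in HoxA, and 23 of the 142 were at or below that value. HoxA was thus near the upper end of these windows in its Hnf4a share and in the lower part of them in its 48-hour peaks. It was chosen with its counts known, so these places are a description only. The ratio of stages also depends on how peaks are split. With peaks up to 2 kb apart joined, HoxA held 5 Foxa3 regions of 48 hours and 6 of iHep cells.

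Most Foxa3 peaks of HoxA had low scores for their list and more than the usual width. Their scores ran from 6.06 to 45.1 with a median of 11.8, against a median of 14.6 for the list, and 4 of 40 were in the upper 25% of the list. The peak with the highest score, 45.1 at 52108449 to 52108854, lay outside the runs, 18.7 kb from the lower bound, and was in no other list. The next, 25.5 at 52177751 to 52180069, was the widest at 2319 bp and overlapped Hnf4a peaks. The median width in HoxA was 361.5 bp against 248 bp for the list. The Hnf4a peaks of HoxA were less shifted in score, with a median percentile of 44.3 and 8 of 29 in the upper 25%. Their highest scores were 18.7 at 52180596 to 52181196 and 17.7 at 52179416 to 52179784, both at Foxa3 peaks of the lower run. Nothing in any list lay within 18.0 kb of the lower bound inside HoxA or within 37.0 kb outside it. At the upper bound these distances were 17.2 kb and 137 kb.

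HoxC, whose genes Hoxc9 to Hoxc13 act in the trunk and hind limb, had 19 peaks, all in iHep cells. Hnf4a of the Foxa3 line had 11, Foxa3 had 5 and Foxa2 had 3, while all 6 lists of 48 hours and the other 3 iHep lists had 0. Among windows of the same length 0.0318% held at least 11 such Hnf4a peaks, 3.73% at least 5 iHep Foxa3 peaks and 5.94% at least 3 iHep Foxa2 peaks. The 6 windows behind the Hnf4a value include those on HoxC and HoxA. The flanks held 1 Foxa3, 2 Foxa2 and 1 Foxa1 peak in iHep cells and 0 Hnf4a peaks.

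By number of peaks the order of the 2 factors in HoxC was the reverse of that in HoxA, with more Hnf4a than Foxa3 peaks. With peaks within 500 bp merged they had 8 and 5, and with peaks up to 2 kb apart joined 3 each. The bases in peaks were also nearly equal, at 2516 bp for Hnf4a and 2506 bp for Foxa3. The Hnf4a peaks lay close together, at 102780358 to 102796363, and scored between 7.12 and 10.3. By score 10 of these 11 were in the lower 50% of their list, as were all 5 Foxa3 peaks in theirs. Neither factor had a HoxC peak in the upper 25%. Of the 11, 2 overlapped a Foxa3 peak (18.2%, 5.14% to 47.7%), an interval that holds the 37.7% of the whole list. In HoxA it was 27 of 29. The nearest Foxa3 centre was a median of 1357 bp away. Of the Foxa3 peaks 4 lay among the Hnf4a peaks and the fifth, 1510 bp wide, at 102828690 to 102830199. The Foxa2 peaks overlapped neither Foxa3 nor Hnf4a peaks of the Foxa3 line, beside 2.19% and 2.12% of the whole Foxa2 list. The lowest, at 102790948 to 102791292, nonetheless lay among the Hnf4a peaks, right after the one at 102790753 to 102790935. The strongest Foxa2 peak, at 102819683 to 102820162, scored 23.7, the 59.1 percentile of its list.

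**Figure D5:**
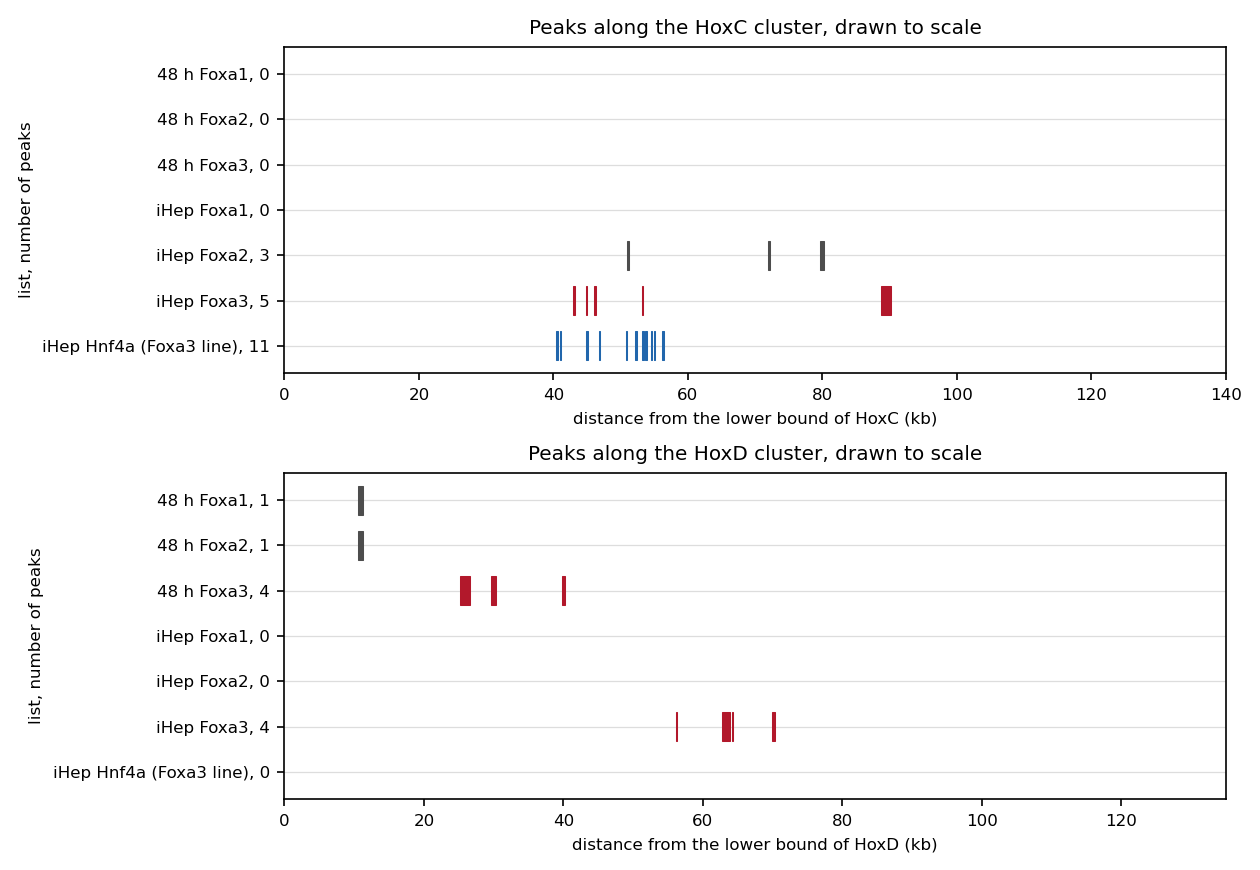
Peaks along HoxC (upper panel) and HoxD (lower panel), drawn to scale as in the map of HoxA, with distance from the lower bound in kb (x axis) and 1 row per list with its count. In HoxC the 11 Hnf4a peaks crowd between 40 and 60 kb, and in HoxD the 4 Foxa3 peaks of 48 hours and the 4 of iHep cells lie apart.

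HoxD, whose Hoxd9 to Hoxd13 pattern the limbs and digits, had 10 peaks, all of Foxa proteins. Foxa3 had 4 at 48 hours and 4 in iHep cells, and Foxa1 and Foxa2 had 1 each at 48 hours. The 2 Foxa3 sets shared no peak: those of 48 hours lay at 74505166 to 74520201 and those of iHep cells at 74536078 to 74550312, with 15.9 kb between them. A share of 0 of 4 has a Wilson interval of up to 49.0%, beside 74.2% of all Foxa3 peaks of 48 hours that were present in iHep cells and 43.8% in the other direction. At least 4 Foxa3 peaks were held by 1.27% of windows of this length at 48 hours and by 5.6% in iHep cells. At least 1 peak was held by 25.1% for Foxa1 and 24% for Foxa2 at 48 hours. The flanks held 2 Foxa1, 3 Foxa2 and 1 Foxa3 peak at 48 hours and 2 Foxa3 peaks in iHep cells. Foxa1 thus had 1 peak in each flank and 1 in the cluster, and Foxa2 had 1 below, 2 above and 1 in the cluster.

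The HoxD site of Foxa1 and Foxa2 was the strongest of these proteins in any Hox cluster. It lay 10.9 kb from the lower bound, at 74490494 to 74491314, and belonged to 48 hours alone. Its score was 55.4 for Foxa1, the 91.7 percentile of the list, and 35.9 for Foxa2, the 88.1 percentile. Of the 3 Foxa1 peaks in the clusters at 48 hours 2 overlapped a Foxa2 peak, and of the 2 Foxa2 peaks 2 overlapped a Foxa1 peak, beside 45.8% and 45.3% of the whole lists. The strongest 48-hour Foxa3 peak of HoxD, at 74506064 to 74506619, scored 23.1 and was in no other list.

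HoxB, the longest of the 4 stretches, held 0 peaks in all 12 lists. Of 13186 windows of its length, 4601 held no peak in any list (34.9%). Its lower flank held 15 peaks, 5 of iHep Foxa3, 4 of iHep Hnf4a in the Foxa3 line, 4 of Foxa3 at 48 hours, and 1 each of Hnf4a in the 48-hour Foxa1 and iHep Foxa2 lines. Its upper flank held 0. The nearest peaks of any list lay 102 kb below and 296 kb above the bounds.

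Over all clusters the iHep Foxa3 line had 89 peaks in the clusters and 12 in the flanks. Divided by the mean of a flank, this is 12.25 times for Foxa3 (49 against 8 in both flanks, exact 95% interval 5.75 to 30.0) and 20 times for Hnf4a (40 against 4, 7.23 to 77.0). Without HoxA the ratios were 2.25 and 5.50. For Foxa3 the ratio was 7.33 with peaks within 500 bp merged, 14 in the upper 50% by score and 19.6 with the bounds drawn in by 10 kb. For Hnf4a it was 15.3 with peaks within 500 bp merged, 26.7 with the bounds drawn in by 10 kb and 32 with longer flanks. For 48-hour Foxa3 the ratio was 3.6 (9 against 5, 1.08 to 13.7), and without HoxA it was 1.6 (4 against 5). The intervals of the ratios also treat neighbouring peaks as separate events and are too narrow, and the clusters were chosen by their counts. Joined over all lists, the 108 peaks made 66 regions, 40 in HoxA, 17 in HoxC and 9 in HoxD. None was held by more than 3 lists, and the 4 held by 3 lists all lay in HoxA. Of these, 3 joined 48-hour Foxa3 with iHep Foxa3 and Hnf4a, at 52194625 to 52197781, 52171950 to 52173943 and 52175598 to 52176125, and the fourth was the site of Foxa1 and Foxa2.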

How the data were processed

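ChIP-seq peak lists of 12 libraries were used, 1 list per group. The authors deposited for each peak a chromosome, start, end, name and a score of a kind not stated in the labels. Per the submitters' processing notes, the build was mm9 and the tools were MACS2 2.1.0, BWA 0.6.2 and bedtools 2.16.2, with no role stated and no word on the use of an input. Starts were raised by 1 to count from 1. Peaks were counted in the clusters and flanks, in 10 kb bins by peak centre, and in back-to-back windows up to the last peak end of each chromosome. Peaks of different lists were taken as shared at 1 bp or more of overlap. Intervals are Wilson or, for ratios, exact binomial at 95%. Read counts and depth are unknown and 1 library per group allows no test. Counting code was tested on simulated data with planted peaks. The clusters, members and comparisons were chosen with earlier results of these data known.

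The rule for naming was the 2 best peaks by score of each list and up to 5 regions per cluster by the number of lists. Genes and the lists of Hox cofactors and other homeobox genes were to be placed only with an mm9 annotation and were not analysed here. Some other peaks are given by position because their place was described, chosen after their values were seen. The 21 samples include 8 inputs, not analysed here. Alternatives were the upper 50% by score, merging within 500 bp, peak centres, bounds moved by 10 kb, longer flanks, lists of equal length, stricter overlaps and offset windows. Joining within 2 kb and leaving out HoxA were added after the data were seen. Tools were matplotlib 3.10.9, SciPy 1.17.1, pandas 2.3.3, NumPy 2.4.6 and Python 3.11.15.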

Additional observations from a re-analysis of the deposited data

Results flagged for a closer look

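The share of Foxa3 peaks that lay in the 4 clusters was higher in iHep cells (0.387%) than at 48 hours (0.158%), while that of Foxa1 went from 0.0442% to 0.0291%, from 3 peaks and 1 peak. It stands here because these lines moved in opposite directions between the stages. The Foxa2 share was also higher in iHep cells, at 0.0387% against 0.0293%, from 4 and 2 peaks. With peaks up to 2 kb apart joined the Foxa3 shares were 0.163% in iHep cells and 0.159% at 48 hours, and the rise was no longer there. With 1 library per group the difference was not tested. In every line the titles of the 2 stages also differ in code, and in the Foxa3 line in replicate number too. These cannot be told apart from stage.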

How the results depend on the processing

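Of 232 recomputed values 190 stayed within the interval of the value as reported or, for numbers of peaks, within 1.5 times of it, and 42 moved. Moving the bounds by 10 kb, counting by peak centre, longer flanks and an overlap of 50% of the shorter peak moved none beyond its interval, although the ratio of clusters to flanks was 19.6 in place of 12.25 for iHep Foxa3 with bounds drawn in, and 32 in place of 20 for its Hnf4a with longer flanks. With peaks within 500 bp merged the Foxa3 ratio was 7.33 and the Hnf4a ratio 15.3. Shares of a list in the clusters moved as follows. In the upper 50% by score they were 0.0703% for 48-hour Foxa3 (2 peaks), 0% for iHep Foxa1 and 0.221% for iHep Foxa3 (14 peaks), and Hnf4a of the iHep Foxa3 line kept 15 peaks. With peaks within 500 bp merged they were 0.267% for iHep Foxa3 (22) and 1.11% for its Hnf4a (23). With peaks up to 2 kb apart joined they were 0.163% (12) and 0.422% (8), beside 0.159% (8) for 48-hour Foxa3. With lists of equal length they were 0% for iHep Foxa2, 0.116% for iHep Foxa3 (4) and 1.14% for its Hnf4a (18). Without HoxA they were 0.0147% for 48-hour Foxa1, 0.0703% for 48-hour Foxa3 (4), 0% for iHep Foxa1, 0.0711% for iHep Foxa3 (9) and 0.439% for its Hnf4a (11). The ratios to the flanks were then 2.25 and 5.50. With windows offset by 50% of their length 0% held at least 29 Hnf4a peaks.

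Of the shares between stages, iHep Foxa3 peaks at 48-hour Foxa3 peaks were 4.08% with centres within 200 bp and 33.3% at equal length, and both Foxa2 shares were 0% in the upper 50%, from 1 peak each. Foxa3 at Hnf4a in iHep cells was 28.6% with centres within 200 bp, 66.7% at equal length (2 of 3) and 22.2% without HoxA. Hnf4a at Foxa3 was 32.5%, 10% and 18.2% in the same order. Foxa1 at Foxa2 at 48 hours was 100% in the upper 50% and without HoxA, from 1 peak each. The cause of these moves was not tested, except that fewer peaks enter where lists are shortened. No paired analysis was possible because each group has 1 library. For the same reason no library could be left out within a group.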
